A study of Mus musculus with 72 samples.

Results

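The comparison described here is the change of the Nup133 genotype difference between day 0 and day 3 of a neuroectodermal differentiation of mouse embryonic stem cells. It is the interaction (knockout minus control at day 3) minus (knockout minus control at day 0), on the log2 scale, so that a positive value means that a gene stood higher in the knockout lines, relative to the controls, at day 3 than at day 0. Its members are the 12 biological samples of day 0 and day 3, of 18 in the series, each sequenced as 4 technical libraries (48 of 72 files). The samples fall into 4 groups of 3.

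The Y-complex, of which Nup133 is a part, forms the scaffold of the nuclear pore. The controls were 2 biological replicates of HM1 (Nup133+/+, XY) and the blastocyst-derived line 1A4 (Nup133+/+, Sox1gfp/+, XY). The knockout lines were 14 and 19, made from HM1 by CRISPR/Cas9 (Nup133-/-, XY, the karyotype of line 19 given as likely), and the blastocyst-derived line 319 (Nup133merm/merm, Sox1gfp/+, XX with an extra chromosome 8 and 12). Each knockout line is 1 line or clone, and lines 14 and 19 share their parent with both HM1 replicates. The p-values measure the spread between these few lines and, in 2 of the 3 control series, between replicates of 1 line. At day 0 all lines were in serum and LIF and had been freed of mitomycin-treated DR4 feeder fibroblasts by a short plating. They then grew in N2B27 on gelatin, with all-trans retinoic acid from day 2, and were collected at day 3 a day later.

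Gene counts per sample ranged from 25.8 M to 54.4 M at day 0 and day 3. Nup133 (chromosome 8:123897123-123949265, GRCm38) held 239, 248 and 332 CPM (counts per M counts of the library) in the controls at day 0 (HM1 replicate 1, HM1 replicate 2 and 1A4, the order used throughout), and 28.1, 37.5 and 24.2 CPM in lines 14, 19 and 319. At day 3 it held 188, 182 and 217 CPM against 17.1, 24.0 and 14.4 CPM. The groups did not overlap at either day, and the interaction was -0.23 ± 0.13 (SE, adjusted p 0.419, edgeR quasi-likelihood test), which did not pass the test for a change between days. The 6 pluripotency markers summed to 3680 to 5020 CPM at day 0 and to 417 to 821 CPM at day 3 over all samples, and the 5 neural progenitor markers to 49.7 to 164 CPM and 262 to 892 CPM. At day 0 the pluripotency sums were 3680 to 3920 CPM in the controls and 4210 to 5020 CPM in the knockout lines. At day 3 the neural progenitor sums were 348, 296 and 309 CPM in the controls and 595, 892 and 262 CPM in lines 14, 19 and 319. Line 319 lay apart on the second principal component at both days, and line 19 on the third at day 3.

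Several of the genes below belong to Wnt signalling and to the primitive streak. Wnt ligands bind Frizzled receptors and LRP co-receptors, which stabilises beta-catenin and lets TCF/LEF factors act on target genes. R-spondins, bound by Lgr receptors, strengthen that signal, and secreted Frizzled-related proteins weaken it. In the embryo Wnt3 starts the primitive streak, where Eomes, Mixl1 and Lhx1 are transcribed, and embryonic stem cells grown in serum can contain a few cells with streak transcripts. Retinoic acid binds nuclear receptors that sit on paired half-sites, and Cyp26a1, which degrades retinoic acid, is one of the genes it induces directly.

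Of 17639 genes tested, 51 had a genotype difference that changed between day 0 and day 3 (adjusted p under 0.05, 0.289% of genes), 48 positive (0.272%) and 3 negative (0.0170%). The absolute interaction of these 51 ran from 0.80 to 7.69 log2, and the median over all genes was 0.02. The largest positive values were those of Prl2c3, Lhx1, Ch25h, Dio2, Lgr5, Cyp26a1, Mixl1, Frzb, Rspo3 and Wnt3, and the 3 negative values were those of Doc2a, Rdm1 and Csrp2. The places of Prl2c3, Ch25h and Dio2 rest on groups at or near 0 counts and depend on the fit: limma-voom gave 5.54, 5.03 and 5.37 for them and 7.63 for Lhx1. Because the 51 were chosen by this test, their directions are a description: the changes of the 3 knockout lines lay on one side of those of the controls in 50 of the 51, and in 23.0% of all genes. The exception was Ch25h, an enzyme that makes 25-hydroxycholesterol. It held 0.622, 0.440 and 0.522 CPM in the day 3 controls, 6.69 and 8.86 CPM in lines 14 and 19 and 0.208 CPM in line 319. The set of called genes is not firm: 35 of the 51 had an adjusted p of at least 0.047, 5 had one under 0.02, and 2753 genes were at an unadjusted p under 0.05. Without the block for series the count was 127, and leaving out 1 of the 6 series in turn gave 1 (without HM1 replicate 1), 2 (without HM1 replicate 2), 5 (without 1A4), 0 (without line 14), 3 (without line 19) and 821 (without line 319). Of the 51 themselves, 1, 2, 4, 0, 3 and 51 were still called in these fits, and without line 14, where edgeR called none, 3038 genes were at an unadjusted p under 0.05. Of the 51, 7 are genes of the Ugt1a cluster, which share exons, and the read counts of S100a4 are shared with the overlapping Gm42674, so the 51 come from 44 loci.

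The 51 were sorted by their fitted difference at each day, taking 1.5-fold as the limit for a difference. The difference flipped sign in 22 genes, 21 of them from lower to higher in the knockout lines. Ch25h is among the 21 by its fitted values only. Its day 0 controls averaged 0.11 CPM, at least 1.4-fold above a floor of 3 counts in each knockout sample, which is under the limit. It appeared in 16 (14 higher, 2 lower at day 3) and vanished in 10, all of which were lower in the knockout lines at day 0. In 2 it kept its sign and changed size (Sox21 and Aplnr), and in 1 it stayed under the limit at both days (Morc2a). Tested at each day separately, 8 of the 21 genes that flipped to higher passed at both days, 8 at day 3 alone, 1 at day 0 alone (Mixl1) and 4 at neither (Ch25h, Cpm, Dmgdh and Irs1). Among the 10 that vanished, 9 passed at day 0, and all 16 that appeared passed at day 3 and none at day 0. The classes were set by the fitted differences of these same tests, which favours such counts. Over all genes, 1.23% were called lower and 0.153% higher in the knockout lines at day 0, and 6.99% lower and 6.58% higher at day 3. With a limit of 2-fold, 11 genes flipped, 20 appeared, 12 vanished, 1 changed size and 7 stayed under the limit at both days.

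**Figure D1:**
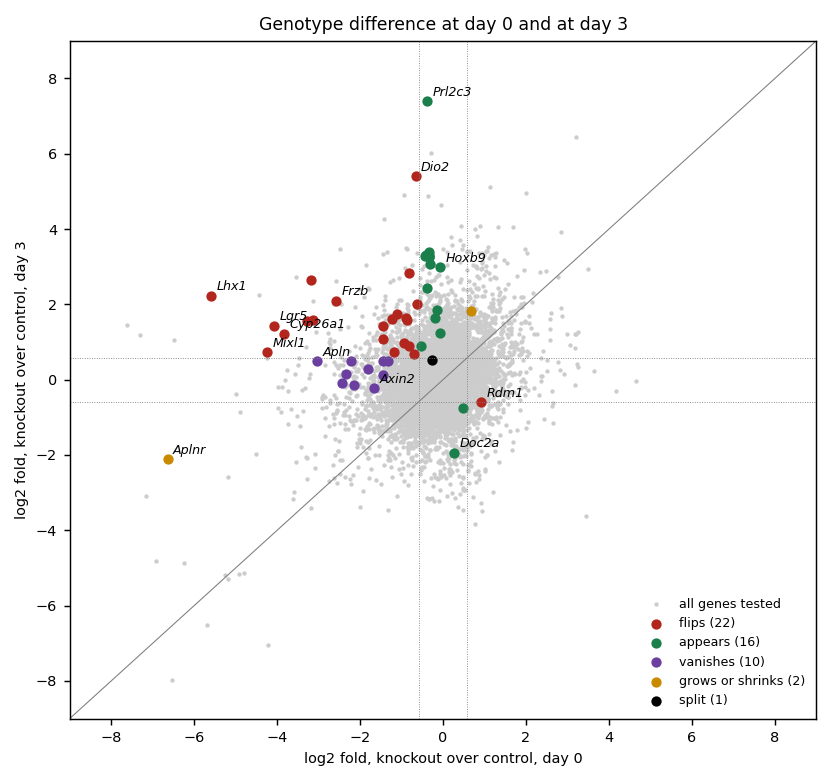
Log2 fold of the knockout lines over the controls at day 0 (x axis) and at day 3 (y axis) for all genes tested (grey) and the 51 genes called for the interaction, coloured by class. Dotted lines mark 1.5-fold and the diagonal marks equal differences. Most called genes lie to the left of zero and above the diagonal, with 3 below it.

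Genes of Wnt signalling are given first. Of the 28 genes of a Wnt list, all tested, 5 were called and all were positive: Lgr5, Frzb, Rspo3, Wnt3 and Axin2. The list had a median day 0 difference of -0.91, a median day 3 difference of 0.23 and a median interaction of 1.11, where the medians over all genes were 0.00, 0.01 and 0.02. At day 0, 8 of the 28 were called lower and 0 higher in the knockout lines, and at day 3, 4 were called higher and 3 lower. In the lines derived from HM1 taken alone (2 samples a group), 10 were called positive and 1 negative, where 4.12% and 2.07% of 17912 genes were.

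Wnt3, the streak-inducing ligand (chromosome 11:103774150-103817957), held 7.27, 10.3 and 6.83 CPM in the day 0 controls and 0.900, 0.680 and 1.08 CPM in lines 14, 19 and 319. At day 3 it held 1.54, 1.15 and 1.49 CPM in the controls and 2.01, 3.08 and 8.44 CPM in the knockout lines. The controls were above every knockout line at day 0 and below every one at day 3. The interaction was 4.67 ± 0.53 (adjusted p 0.0332), from -3.28 ± 0.43 at day 0 to 1.55 ± 0.41 at day 3 (adjusted p 0.0052 and 0.032). Both genotypes moved: the controls fell by 2.52 on the log2 scale and the knockout lines rose by 2.14.

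Rspo3, a secreted R-spondin (chromosome 10:29452416-29535867), had 1.81, 3.60 and 1.96 CPM in the day 0 controls and 0.277, 0.398 and 0.166 CPM in the knockout lines. Its day 3 levels were 0.757, 0.676 and 0.679 CPM in the controls and 2.08, 3.63 and 1.143 CPM in the knockout lines, again without overlap and in the opposite order. The interaction was 4.69 ± 0.46 (adjusted p 0.0184). Lgr5, an R-spondin receptor (chromosome 10:115450311-115587780), was nearly absent from the knockout lines at day 0, at 0.0692, 0.0234 and 0.0414 CPM against 0.709, 0.924 and 0.695 CPM in the controls. With 3 counts in each knockout sample as the floor, the day 0 controls were at least 9.86-fold higher. At day 3 Lgr5 held 2.27, 1.52 and 1.72 CPM in the controls and 4.11, 8.52 and 2.96 CPM in the knockout lines, every knockout line above every control (log2 fold 1.43 ± 0.35, adjusted p 0.024). The fitted interaction of Lgr5, 5.51 ± 0.63 (adjusted p 0.0332), rests on day 0 groups near 0 counts. Lgr4, the related receptor, was positive too (interaction 1.28 ± 0.19) and had fallen in both genotypes, further in the controls.

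Frzb, a secreted Wnt antagonist (chromosome 2:80411970-80447625), held 2.10, 1.78 and 0.859 CPM in the day 0 controls and 0.277, 0.258 and 0.228 CPM in the knockout lines. At day 3 it held 2.65, 1.89 and 2.74 CPM against 10.6, 16.5 and 6.44 CPM. The control level did not pass the test for a change (log2 0.65, adjusted p 0.13), while the knockout lines rose by 5.36, so the flip of Frzb was a rise in the knockout lines (interaction 4.71 ± 0.53, adjusted p 0.0332). Axin2, the feedback inhibitor of the pathway (chromosome 11:108920349-108950783), held 32.4, 42.0 and 29.4 CPM in the day 0 controls and 10.2, 11.9 and 10.5 CPM in the knockout lines. At day 3 its groups overlapped, at 32.6, 39.8 and 33.6 CPM and 30.6, 27.6 and 31.7 CPM. The day 0 difference of -1.67 ± 0.15 (adjusted p 0.00041) was -0.23 ± 0.14 at day 3 (adjusted p 0.29), and the interaction was 1.42 ± 0.18 (adjusted p 0.0423). In bulk samples such as these, fewer cells of a type and less RNA per cell cannot be told apart.

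**Figure D2:**
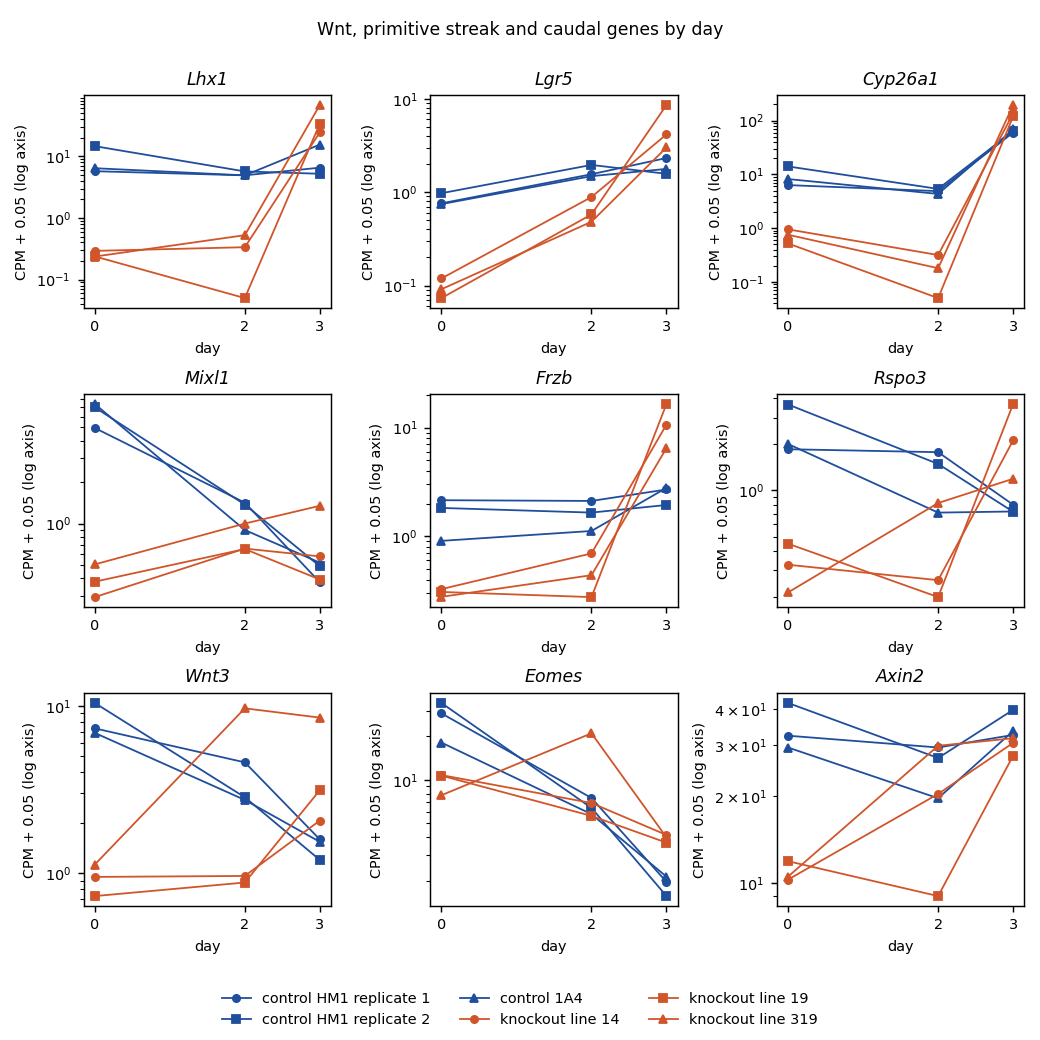
CPM plus 0.05 (log axis) by day for 9 genes in the 3 control series (blue) and the 3 knockout lines (orange), each line joining the samples of 1 series. Day 2 values come from the fit of all 18 samples. At day 0 all blue points lie above the orange ones, and at day 3 the orange points of Lhx1, Lgr5, Cyp26a1, Frzb, Rspo3, Wnt3 and Eomes lie above the blue ones.

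Primitive streak genes showed the same order of groups at day 0. Of the 21 genes of a mesendoderm and primitive streak list, 20 were tested and 4 were called, all positive: Lhx1, Mixl1, Aplnr and Eomes. The list had a median of -1.66 at day 0, 0.16 at day 3 and 1.74 for the interaction, and 9 of the 20 were called lower at day 0. At day 3, 3 were called higher and 3 lower. With the HM1-derived lines alone, 10 of 20 were called positive and 2 negative (Kdr and Lefty2). Cer1, a secreted antagonist of Nodal, BMP and Wnt, had 0 counts in all 3 knockout samples at day 0 and an adjusted p of 0.0506 for the interaction, just outside the threshold. T (Brachyury), the mesoderm factor, was lower at day 0 (-3.73, adjusted p 0.0052) and not called at day 3 (-1.18, adjusted p 0.12), with an interaction of 2.34 (adjusted p 0.173).

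Lhx1, a LIM homeodomain factor of the streak and of the later neural tube (chromosome 11:84518284-84525535), held 5.70, 14.6 and 6.38 CPM in the day 0 controls and 0.242, 0.188 and 0.186 CPM in the knockout lines. At day 3 it held 6.51, 5.17 and 15.5 CPM in the controls and 24.6, 34.0 and 68.3 CPM in the knockout lines. The order of the groups reversed without overlap at either day. The control mean hardly moved (log2 change 0.00, adjusted p 1), the knockout lines rose by 7.66, and the interaction was 7.66 ± 0.82 (adjusted p 0.0332). The difference was -5.59 ± 0.61 at day 0 (adjusted p 0.0018) and 2.23 ± 0.44 at day 3 (adjusted p 0.011).

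Mixl1, a homeobox factor of mesendoderm (chromosome 1:180693043-180697034), held 4.91, 6.96 and 7.36 CPM in the day 0 controls and 0.242, 0.328 and 0.455 CPM in the knockout lines. By day 3 it held 0.324, 0.440 and 0.470 CPM in the controls and 0.528, 0.342 and 1.30 CPM in the knockout lines. The day 3 groups overlapped, and the difference there was 0.73 ± 0.36 (adjusted p 0.2), so that its flip is one of the fitted means only. The interaction was 4.92 ± 0.47 (adjusted p 0.0184). Eomes, a T-box factor (chromosome 9:118478212-118486132), fell in both genotypes, from 28.7, 33.9 and 18.03 to 1.92, 1.52 and 2.09 CPM in the controls and from 10.7, 10.6 and 7.78 to 4.11, 3.63 and 3.95 CPM in the knockout lines. The deeper fall in the controls left the knockout lines higher at day 3 (interaction 2.51 ± 0.36, adjusted p 0.0475).

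Apelin and its receptor both changed. Apln, the peptide ligand (chromosome X), was lower in the knockout lines at day 0, at 1.45, 1.62 and 1.37 CPM against 13.7, 13.6 and 9.49 CPM. At day 3 it held 5.08, 6.26 and 4.03 CPM against 4.14, 3.62 and 3.08 CPM, with only line 319 inside the range of the controls (interaction 3.53 ± 0.27, adjusted p 0.00794). Aplnr, the receptor, had 2.91, 7.05 and 1.72 CPM in the day 0 controls and 0.0692, 0.0234 and 0.0207 CPM in the knockout lines, which makes the controls at least 49.5-fold higher. It stayed lower in the knockout lines at day 3, at 0.379, 0.137 and 0.545 CPM against 1.30, 2.60 and 1.18 CPM (log2 fold -2.12 ± 0.58, adjusted p 0.036). The ligand's difference was therefore gone by the limit used here and the receptor's was smaller.

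Cyp26a1 had one of the 2 lowest adjusted p-values of the comparison, with Apln. It lies on chromosome 19:37697798-37701536. The day 0 controls held 6.27, 14.0 and 8.14 CPM and the knockout lines 0.900, 0.469 and 0.703 CPM. After retinoic acid, at day 3, the controls held 60.1, 63.6 and 68.5 CPM and the knockout lines 136, 119.6 and 195.4 CPM. Both genotypes rose, by 2.83 in the controls and 7.79 in the knockout lines on the log2 scale. The difference went from -3.83 ± 0.35 (adjusted p 0.00052) to 1.22 ± 0.26 (adjusted p 0.016), and the interaction was 4.97 ± 0.35 (adjusted p 0.00794). No sample of one genotype overlapped the other at either day.

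Promoter sequences from RefSeq (GRCm38.p6, 250 bases before to 50 after the start) were found for 37 of the 51 genes, in 41 entries. They were searched on both strands for a direct repeat of retinoic acid receptor half-sites with 5 bases between them (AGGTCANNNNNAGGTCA, AGGTCANNNNNAGTTCA, AGTTCANNNNNAGGTCA and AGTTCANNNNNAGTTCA) and for the TCF/LEF core CTTTGA. The repeat was in 13 of 32817 promoters of the table (0.0396%), and Cyp26a1 was the 1 called gene among them. The core was in 16.0% of all promoters and in 9 of the 41 entries, those of Dio2, Frzb, Jag1, Amot, Sp8, Ugt1a6a, Tnfrsf19, Sox21 and Ugt1a7c. The 200 bases before the RefSeq start of Cyp26a1 and of Frzb are shown as examples. Cyp26a1 holds the 1 repeat among the called genes. Of the called genes of the Wnt list, Frzb, Wnt3 and Axin2 had a promoter entry, and only the window of Frzb holds the core. Lgr5 and Rspo3 had no entry and were not searched, nor were Mixl1 and Hoxb9. The Frzb stretch lies inside the gene span given above, so it precedes the RefSeq start only. Cyp26a1 is given at chr19:37697608-37697807 on the plus strand and Frzb at chr2:80447397-80447596 on the minus strand, 5′ to 3′, with the match in capitals.
Cyp26a1: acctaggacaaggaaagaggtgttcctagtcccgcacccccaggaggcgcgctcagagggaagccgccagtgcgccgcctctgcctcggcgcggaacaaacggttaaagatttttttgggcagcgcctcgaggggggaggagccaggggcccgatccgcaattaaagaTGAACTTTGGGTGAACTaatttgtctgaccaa
Frzb: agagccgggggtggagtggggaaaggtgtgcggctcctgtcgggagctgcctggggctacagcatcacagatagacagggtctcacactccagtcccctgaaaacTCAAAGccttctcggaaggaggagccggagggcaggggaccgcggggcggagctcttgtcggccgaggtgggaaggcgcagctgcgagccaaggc
Both matches read on the strand opposite to the gene, and the repeat of Cyp26a1 begins 32 bases before the start. Each sequence holds 1 of the 2 motifs. A match of letters does not show that a receptor or TCF factor binds there, and the windows of Wnt3, Axin2, Lhx1 and Eomes held neither.

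Of the 22 genes of a wider retinoic acid list 21 were tested and 1, Cyp26a1, was called, with a median interaction of 0.72 against 0.02 over all genes. At an unadjusted p under 0.05, 9 of the 21 were positive and 1 negative, where 1562 and 1191 of all 17639 genes were. DESeq2 called 4 positive (Cyp26a1, Crabp1, Nrip1 and Cdx1) and 1 negative (Rarg), and 429 and 224 of all genes. At day 3, 6 stood higher in the knockout lines by the test and 2 stood lower (Rara and Rarg, both receptors), and at day 0, 0 higher and 2 lower (Cyp26a1 and Nrip1). In the HM1-derived lines alone, 10 were called positive and 1 negative, among them the binding proteins Crabp1 (1.92) and Crabp2 (1.74), the retinol transporter Stra6 (3.79) and Aldh1a2, which makes retinoic acid (2.66), with Rarg at -1.85. In the fit of all lines those interactions were 1.42, 0.81, 1.03, 1.86 and -1.52, and none passed. Sp8, a caudal epiblast and limb factor on chromosome 12, was called (interaction 2.73 ± 0.34, adjusted p 0.0439). It held 11.5, 7.64 and 7.44 CPM in the day 3 controls and 32.8, 45.4 and 29.8 CPM in the knockout lines, the last from the line with an extra chromosome 12. With Cyp26a1, it made 2 of 14 caudal epiblast genes called, and the list had medians of -1.66 at day 0, 0.56 at day 3 and 2.31 for the interaction. Among 13 caudal genes tested in the HM1-derived lines alone, 9 were called positive and 0 negative.

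A second set of genes was alike at day 0 and differed at day 3. Hoxb9, a homeobox gene of the trunk (chromosome 11:96271457-96276595), held 0.814, 0.900 and 2.13 CPM in the day 0 controls and 0.588, 1.01 and 1.99 CPM in the knockout lines. By day 3 it held 1.89, 1.76 and 3.29 CPM in the controls and 9.25, 18.5 and 28.9 CPM in the knockout lines, with no overlap (interaction 3.08 ± 0.30, adjusted p 0.0184). It was the 1 gene called of 18 tested central and posterior Hox genes. At day 3, 14 of these 18 were called higher in the knockout lines and 0 lower, and at day 0 none was called by edgeR. At an unadjusted p under 0.05, 4 were higher and 0 lower at day 0, where 948 and 1779 of all 17639 genes were. The list's median was 0.56 at day 0, 1.94 at day 3 and 1.85 for the interaction, 15 of 18 interactions being positive, against 9127 of 17639 over all genes. So for 13 of the 14 the difference at day 3 passed its test and the change between days did not. The HM1-derived lines alone gave 2 called of 17 (Hoxb9 and Hoxd8).

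Msx1, a homeobox gene of the dorsal neural tube, held 0.703, 0.811 and 0.862 CPM in the day 3 controls and 4.24, 5.10 and 7.66 CPM in the knockout lines. At day 0 the levels were 2.65, 3.62 and 2.41 CPM against 1.52, 2.37 and 1.01 CPM, so the controls fell while the knockout lines rose (interaction 3.67 ± 0.53, adjusted p 0.0475). Sox21, a neural progenitor factor, fell in both genotypes and less in the knockout lines (interaction 1.16 ± 0.17, adjusted p 0.0475). These were the 2 called of 24 neural progenitor genes tested, where 7 were called higher at day 3 and 0 at day 0. Pax6, a neural progenitor factor, missed the threshold (interaction 1.52 ± 0.27, adjusted p 0.0716). It held 42.7, 24.8 and 23.6 CPM in the day 3 controls and 179, 321 and 36.6 CPM in the knockout lines, line 319 lying below the highest control. Gli3 of the hedgehog pathway (interaction 1.37 ± 0.18) and the Notch ligand Jag1 (1.43 ± 0.21) were the 1 called gene of their lists of 17 and 18. Nup210l, a nucleoporin paralog, stood higher at day 3 (3.58 ± 0.33, adjusted p 0.00081) with an interaction of 3.08 ± 0.50 (adjusted p 0.0565). In the fit of all lines with the series block edgeR called no nucleoporin of 29 tested. At an unadjusted p under 0.05 were 5 of the 29, and 2753 of all 17639 genes. The interaction of Nup210l passed in edgeR without the block (adjusted p 0.0134), with 18 samples (0.0179), in the HM1-derived lines alone (0.00779), without the filter (0.00493) and without line 319 (0.00509), and in DESeq2 (8.35e-06). In the other 11 fits it did not pass, with an adjusted p from 0.0569 to 0.316.

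**Figure D3:**
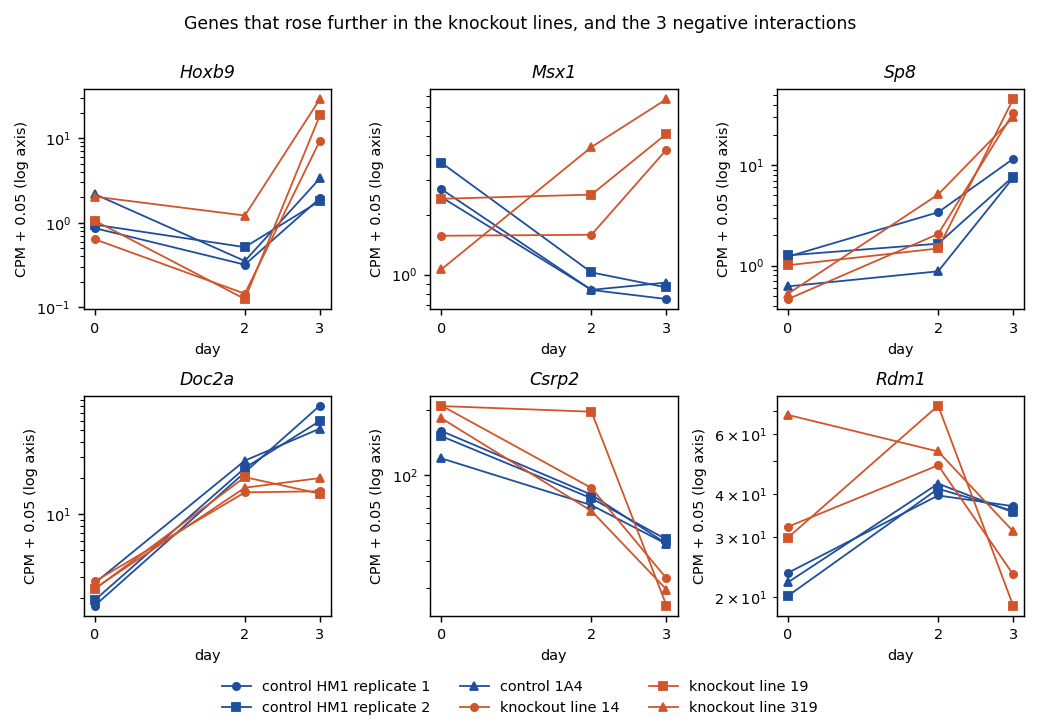
CPM plus 0.05 (log axis) by day for Hoxb9, Msx1 and Sp8, positive in the interaction, and for Doc2a, Csrp2 and Rdm1, the 3 negative genes. Blue marks the 3 control series and orange the 3 knockout lines. At day 3 all orange points lie above the blue ones in the first 3 panels and below them in the last 3.

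The remaining genes that appeared at day 3 were mostly genes that fell from day 0 to day 3, and fell less in the knockout lines. Over all genes, 60.6% changed between the days in the controls and 60.7% in the knockout lines. Among the 48 positive genes, 18 rose in both genotypes, 8 fell in both, 8 fell in the controls and rose in the knockout lines, 11 fell in the controls with no call in the knockout lines, and 3 (Axin2, Frzb and Lhx1) rose in the knockout lines with no call in the controls. Among the 11 are the 7 Ugt1a genes, Dio2, Lrrc17 and Jag1.

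Prl2c3, a member of the prolactin family with close copies whose reads may be shared, held 4.33, 2.53 and 3.23 CPM in the day 0 controls and 2.73, 1.80 and 3.62 CPM in the knockout lines. At day 3 no count was found in any of the 3 controls, while the knockout lines held 0.396, 0.377 and 0.909 CPM. With 3 counts in each control as the floor, the knockout lines were at least 6.45-fold higher at day 3. Dio2, the deiodinase that activates thyroid hormone, likewise had at most 3 counts in each day 3 control and 0.593, 0.411 and 0.597 CPM in the knockout lines, at least 6.14-fold higher. It lies on chromosome 12. Unlike Prl2c3, Dio2 is in the class that flipped, its fitted day 0 difference being past 1.5-fold and lower in the knockout lines.

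The 7 called Ugt1a genes, glucuronosyltransferases whose transcripts share their last exons, carry largely the same reads and count as 1 locus (Ugt1a9, chromosome 1:88070800-88218997). For Ugt1a9 the day 0 levels were 1.496, 1.07 and 1.39 CPM in the controls and 1.32, 0.633 and 1.20 CPM in the knockout lines. At day 3 they were 0.0541, 0.0676 and 0.105 CPM against 0.775, 0.821 and 0.857 CPM. The groups overlapped at day 0 and lay apart at day 3 (interaction 3.76 ± 0.56 for Ugt1a9, and from 3.45 to 3.76 over the 7, all with an adjusted p of 0.0475). Lrrc17, a leucine-rich repeat protein, fell from 4.75, 3.43 and 1.64 CPM to 0.432, 0.203 and 0.209 CPM in the controls. The knockout lines held 2.15, 1.31 and 0.972 CPM at day 0 and 1.37, 0.924 and 0.623 CPM at day 3, a change that did not pass (adjusted p 0.088), and lay above the controls at day 3 (class flipped, interaction 2.88 ± 0.41, adjusted p 0.0475). S100a4, a calcium-binding protein of fibroblasts and migrating cells, fell from 26.0, 15.9 and 19.4 to 0.784, 0.609 and 0.470 CPM in the controls, and from 19.9, 10.1 and 28.1 to 1.90, 1.47 and 3.61 CPM in the knockout lines (interaction 1.99 ± 0.29, adjusted p 0.0475).

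Fibroblast transcripts were examined beside these genes, because the day 0 cells came off feeders. Col6a3, a collagen VI chain, was the 1 gene called of 18 tested on the feeder fibroblast list. It held 1.68, 1.39 and 0.888 CPM in the day 3 controls and 5.19, 2.36 and 3.71 CPM in the knockout lines, after 50.7, 35.1 and 13.1 CPM and 25.4, 12.2 and 13.1 CPM at day 0 (interaction 2.36 ± 0.31, adjusted p 0.0475). Over the list the median interaction was 0.30, and at day 3, 2 genes were called higher (Col3a1 and Col6a3) and 3 lower (Postn, Acta2 and Tagln). The summed level of the 19 fibroblast markers was 241 to 559 CPM in the day 0 controls, 194 to 324 CPM in the day 0 knockout lines, 335 to 448 CPM in the day 3 controls and 227 to 346 CPM in the day 3 knockout lines, and no marker was at 0 in a whole group. At day 3 the sums of the genotypes overlapped, line 14 (346 CPM) lying above HM1 replicate 1 (335 CPM), and the part of feeder cells in Col6a3, S100a4 and Prl2c3 was not tested. Marker sums of other cell types at day 3 were 46.7 to 56.9 CPM in the controls and 59.5 to 65.7 CPM in the knockout lines for 7 primitive endoderm markers, and 7.22 to 11.3 and 5.75 to 14.6 CPM for 4 trophoblast markers. The 5 mesendoderm markers summed to 48.9 to 101 CPM in the day 0 controls and 11.8 to 16.3 CPM in the day 0 knockout lines, and to 6.32 to 6.56 and 5.58 to 9.35 CPM at day 3.

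**Figure D4:**
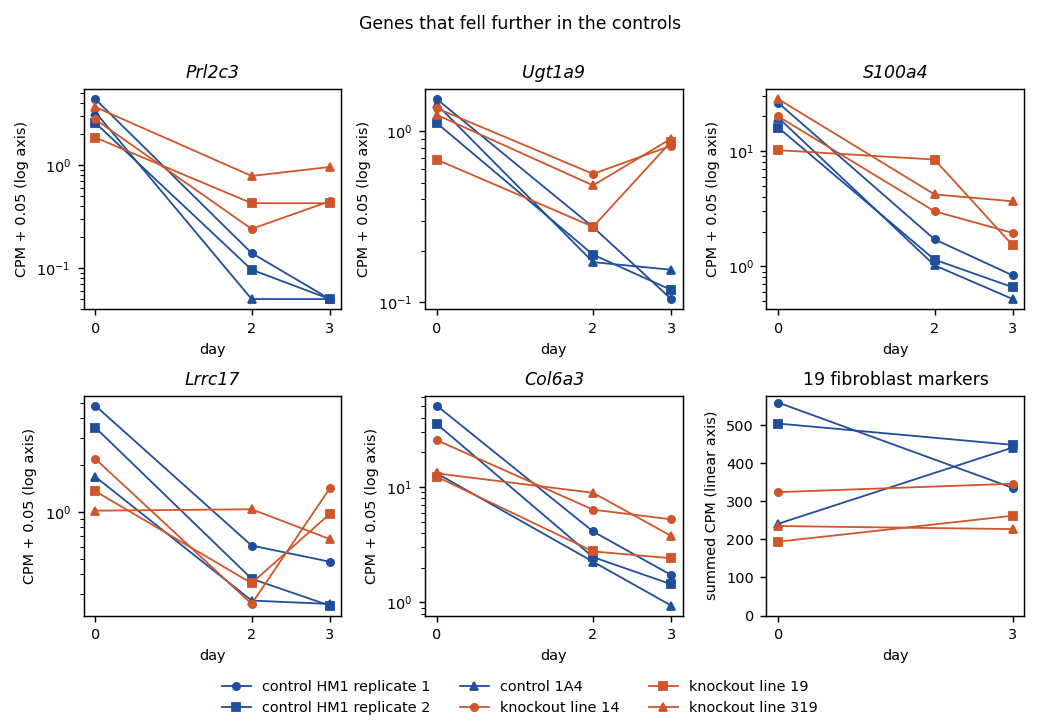
CPM plus 0.05 (log axis) by day for 5 genes that fell from day 0 in the controls, and the summed CPM of 19 fibroblast markers (linear axis, days 0 and 3), in the control series (blue) and the knockout lines (orange). The orange points lie above the blue ones for the 5 genes at day 3, and the marker sums of the genotypes overlap at day 3.

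Most of the other genes that flipped to higher rose in both genotypes and further in the knockout lines. Tnfrsf19, a Wnt-responsive receptor of the TNF family, held 17.3, 23.0 and 11.9 CPM in the day 0 controls and 8.86, 11.1 and 8.28 CPM in the knockout lines. By day 3 it held 25.3, 24.1 and 31.7 CPM against 66.5, 83.9 and 102 CPM, so the groups lay apart in opposite orders (interaction 2.49 ± 0.35, adjusted p 0.0475). Gabra5, a GABA receptor subunit, did the same at lower levels, from 1.16, 0.997 and 0.613 CPM against 0.311, 0.516 and 0.331 CPM to 2.22, 1.79 and 1.65 CPM against 4.57, 7.94 and 4.86 CPM (interaction 2.84 ± 0.36, adjusted p 0.0446). Neither passed at day 0 alone (adjusted p 0.096 and 0.094) and both passed at day 3 (0.004 and 0.0073). Nrcam, a neuronal adhesion molecule on chromosome 12, reached 96.1, 119.4 and 45.8 CPM in the knockout lines and 59.8, 38.5 and 34.0 CPM in the day 3 controls, where line 319 lay inside the control range (interaction 1.77 ± 0.24). Irs1, the insulin receptor substrate (interaction 2.01 ± 0.28), Cpm, a carboxypeptidase (1.96 ± 0.25), and Dmgdh, a mitochondrial choline-pathway enzyme (2.84 ± 0.40), were called for the interaction without passing at either day. In Dmgdh and Cpm line 319 was the highest knockout line at both days, and in Irs1 it was the lowest.

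The 10 genes whose day 0 difference vanished had a median of -1.98 at day 0 and 0.21 at day 3. Besides Apln and Axin2 they were Amot, Dsc2, Fam84b, Fat3, Itgb8, Maml3, Pcdh18 and Piezo2. Piezo2, a mechanosensitive channel, held 6.30, 6.01 and 3.07 CPM in the day 0 controls and 1.38, 1.22 and 0.683 CPM in the knockout lines, and 9.24, 8.62 and 6.63 CPM against 14.3, 15.6 and 6.52 CPM at day 3 (interaction 2.72 ± 0.29, adjusted p 0.0332). Pcdh18, a protocadherin, went from 3.07, 5.40 and 3.39 CPM against 0.761, 0.797 and 0.621 CPM at day 0 to 12.9, 12.7 and 8.38 CPM against 12.4, 13.1 and 6.91 CPM at day 3 (interaction 2.31 ± 0.34). In both genes the groups lay apart at day 0 and overlapped at day 3, with line 319 the lowest knockout line.

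Fat3, an atypical cadherin, rose from 1.71, 1.29 and 0.859 CPM to 41.5, 23.4 and 27.4 CPM in the controls and from 0.277, 0.562 and 0.228 CPM to 44.6, 43.9 and 26.6 CPM in the knockout lines (interaction 2.18 ± 0.33, adjusted p 0.0492). Maml3, a Notch co-activator, had interaction 2.04 ± 0.29 and a day 0 difference of -2.15 ± 0.24 (adjusted p 0.0021), which was -0.13 ± 0.21 at day 3. Fam84b had interaction 1.79 ± 0.21 (adjusted p 0.035), with -1.33 ± 0.24 at day 0 and 0.50 ± 0.23 at day 3. Amot, a scaffold of the Hippo pathway on chromosome X, was lower in all knockout lines at day 0, at 17.1, 16.6 and 10.3 CPM against 54.7, 84.3 and 74.8 CPM, and held 63.1, 79.4 and 24.9 CPM against 48.8, 44.9 and 48.5 CPM at day 3 (interaction 2.37 ± 0.28, adjusted p 0.0367). Line 319 stood below the controls there, and lines 14 and 19 above. Itgb8, an integrin chain on chromosome 12, is the member of the 10 that did not pass at day 0 (-1.45 ± 0.46, adjusted p 0.15).

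In 3 genes the interaction was negative. Doc2a, a calcium sensor of synaptic vesicle release (chromosome 7:126847416-126852705), rose in both genotypes, from 1.68, 1.87 and 2.62 to 80.1, 59.6 and 51.6 CPM in the controls and from 2.70, 2.32 and 2.36 to 15.5, 14.8 and 19.9 CPM in the knockout lines. Every knockout line was below every control at day 3 (log2 fold -1.94 ± 0.20, adjusted p 0.0015; interaction -2.20 ± 0.33, adjusted p 0.0475). Csrp2, a LIM-domain protein, fell in both genotypes and further in the knockout lines, to 33.1, 24.8 and 29.4 CPM against 48.0, 50.2 and 47.8 CPM at day 3 (interaction -1.24 ± 0.17). Rdm1, an RNA-binding protein of the DNA damage response, was the 1 gene that flipped from higher to lower: it held 32.1, 29.8 and 68.2 CPM in the knockout lines against 23.5, 20.1 and 22.04 CPM in the day 0 controls, and 23.2, 18.8 and 31.1 CPM against 36.8, 35.7 and 35.3 CPM at day 3. Its groups did not overlap at either day, yet neither day passed alone (adjusted p 0.071 and 0.089), while the interaction did (-1.47 ± 0.20, adjusted p 0.0475).

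The day 2 samples, collected before retinoic acid, did not enter the comparison and place the change in time. Lines 19 and 319 held 16.5 M and 23.1 M gene counts at day 2, and the other day 2 samples 41.6 M to 51.7 M. The values of 0 CPM given below were found in these shallower libraries, and the part of depth in them was not tested. In a fit of all 18 samples, 0.635% of 18279 genes stood higher in the knockout lines at day 2 (adjusted p under 0.05) and 0.963% stood lower. Of the 21 genes that flipped to higher, 3 were called lower at day 2 (Cyp26a1, Frzb and Lhx1) and 1 higher (Msx1), and their median went from -1.22 at day 0 over -0.28 at day 2 to 1.58 at day 3. Lhx1 held 4.88, 5.65 and 4.87 CPM in the day 2 controls and 0.285, 0 and 0.475 CPM in the knockout lines (log2 fold -4.20, adjusted p 0.0031), and Cyp26a1 4.83, 5.32 and 4.28 CPM against 0.266, 0 and 0.130 CPM (-4.71, adjusted p 0.00023). For these 2 genes the day 0 order of the groups held at day 2, and the reversed order was seen only after the day with retinoic acid. Aplnr was lower at day 2 as well, at 0.0950, 0.0754 and 0 CPM in the knockout lines against 3.08, 3.44 and 2.403 CPM. In the 10 genes that vanished the medians were -1.98, -0.71 and 0.21, with Fat3 called lower at day 2 (-1.61, adjusted p 0.014). In the 14 that appeared higher they were -0.35, 1.35 and 3.18, with S100a4 and Gm42674 called higher at day 2 (2.02 and 1.96, adjusted p 0.039 and 0.044). Of these 14, 7 are Ugt1a genes, which carry largely the same reads, and S100a4 and Gm42674 share theirs. Those day 2 calls are therefore of the same locus, and the medians count the Ugt1a locus repeatedly. Line 319 differed from lines 14 and 19 in Wnt3 and Eomes at day 2, at 9.59 CPM against 0.912 and 0.829 CPM and at 20.9 CPM against 6.86 and 5.58 CPM.

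In some lists no gene was called for the interaction by edgeR with all lines. Over all 17639 genes, 1562 interactions were positive and 1191 negative at an unadjusted p under 0.05. DESeq2 called 429 positive and 224 negative. At day 0, 948 of all genes were higher and 1779 lower at an unadjusted p under 0.05. The 18 naive pluripotency genes had a median interaction of -0.91, 1 of 18 values being positive. By edgeR 0 were called in the fit of all lines, where 6 were negative and 0 positive at an unadjusted p under 0.05, and DESeq2 called 2 negative. At day 0 edgeR called 0, with 1 higher and 1 lower at an unadjusted p under 0.05, and at day 3 it called 2 lower (Klf2 and Tdh). In the HM1-derived lines alone, 7 were called negative and 0 positive: Fgf4 (-2.67), Nanog (-2.07), Nr0b1 (-2.02), Tcl1 (-1.96), Prdm14 (-1.69), Nr5a2 (-1.19) and Dppa5a (-1.17). In the fit of all lines Nanog had an interaction of -1.66 (adjusted p 0.186) and Fgf4 one of -1.77 (adjusted p 0.294). The 9 two-cell-like genes tested, among them Zscan4d and Zfp352, had a median interaction of 2.22 and were all positive. At day 3, 8 of the 9 were called higher and at day 0 edgeR called none, with 1 at an unadjusted p under 0.05. Neither edgeR nor DESeq2 called any of their interactions with all lines, though 7 were at an unadjusted p under 0.05, and edgeR called none in the HM1-derived lines alone (median 0.81). Copies of the Zscan4 family share reads. The 21 interferon response genes had a median of -2.19 at day 0, with 7 called lower, and one of -0.96 at day 3, with 4 called lower, and edgeR called none for the interaction (median 0.79), where 9 were at an unadjusted p under 0.05 and DESeq2 called 2.

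**Figure D5:**
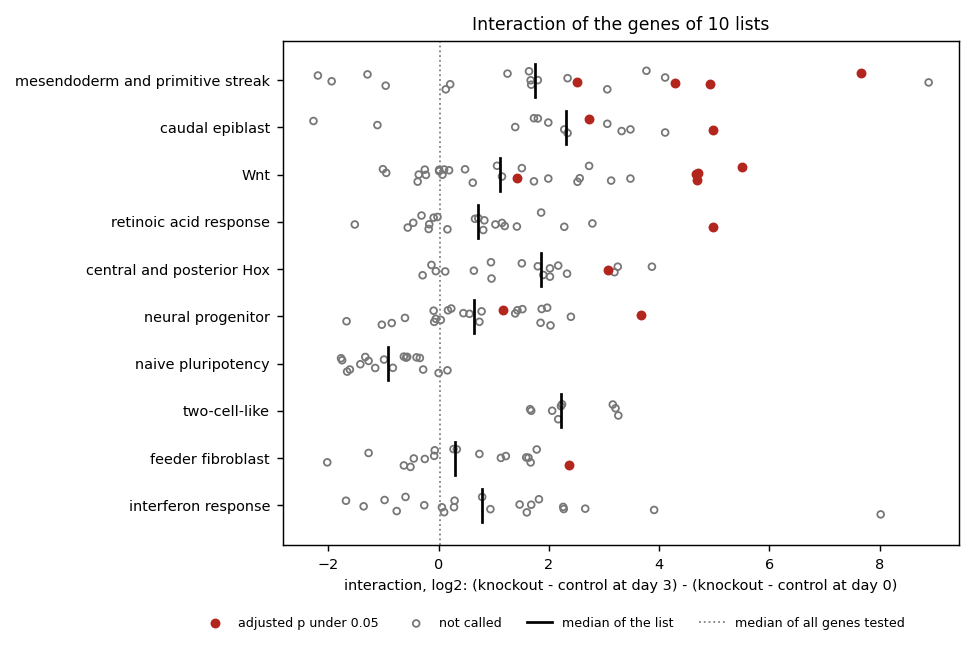
Interaction of each tested gene of 10 lists (x axis, log2), with called genes in red, other genes as open circles, the list median as a black bar and the median of all genes, 0.02, as a dotted line. Called genes lie at positive values, from 1.16 to 7.66, and the naive pluripotency list lies almost wholly below 0.

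The 2 genetic backgrounds gave the same direction for all 51 genes, which the choice of genes by their joint value favours. The change in line 319 minus that in line 1A4 was 6.89 for Lhx1, 4.95 for Cyp26a1, 5.07 for Wnt3 and 2.92 for Frzb, on the scale of log2 CPM with a prior count of 2. In the HM1-derived lines the mean of lines 14 and 19 minus that of the HM1 replicates was 7.42, 4.79, 4.26 and 5.17 for these genes. For Ch25h the values were 0.21 and 5.19. In the HM1-derived lines alone 1108 of 17912 genes were called, 738 positive and 370 negative, and all 51 were among them. The samples of that fit are among those by which the 51 were chosen, which favours this overlap. Its controls are replicates of the same line, so its p-values do not measure the spread between control lines.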

How the data were processed

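The authors deposited raw counts per Ensembl transcript, 1 file per library, per the file headers. The submitters' processing notes name bcl2fastq 2.17.1.14, STAR 2.4.0k, SAMtools, HTSeq and mm10, with no role or order. Of 110379 identifiers, 108309 matched GENCODE M21 (GRCm38) and 45407 genes, and the others held 1.42% to 2.47% of the counts. Since transcripts with common exons carry nearly the same reads, 1 transcript was kept per gene, that with the most counts over all files. The 4 technical files of a sample were added up (chi-square per degree of freedom 1.01 to 1.03, against 11.3 and 6.66 between the HM1 replicates at day 0 and day 3). A read in overlapping genes was counted for each, and the use of strand is not given in the sources used here.

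The interaction was fitted with edgeR 4.0.16 (R 4.3.3), quasi-likelihood with robust estimation and TMM scaling, on the 12 samples of day 0 and day 3 with series as a block (4 residual degrees of freedom). Filtering by expression kept 17639 genes. Samples of a series are the same line or labelled replicate followed over days, so the block comes from the labels; deviations of a series' samples correlated at 0.068 to 0.352, and for HM1 replicate 1 (0.068 against 0.117) and line 14 (0.219 against 0.238) another series correlated more. The difference at each day came from a fit without the block and with a background term (7 residual degrees of freedom). Benjamini-Hochberg adjustment ran over every gene in a fit, with a threshold of 0.05. CPM are TMM-scaled, and errors are SE. Bounds use 3 counts per library and cover counting error only. The fits were tested on simulated data. Alternatives used DESeq2 1.42.0, limma-voom (limma 3.58.1) and others given at the end.

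Genes to name were the 5 largest interactions of each class and direction among called genes that reached 1 CPM on average in their highest group, changed without overlap between the genotypes, had a named symbol and lay outside chromosomes 8, 12, X and Y and the mitochondria, with up to 4 called genes per list and Nup133, Lhx1, Cyp26a1, Frzb, Nup210l and Pax6. The other called genes, and list genes that were not called, were named after their values were seen, and 1 called gene is not reported here. The comparison, the members and the 26 gene lists were chosen with earlier results of these data known.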

Additional observations from a re-analysis of the deposited data

Results flagged for a closer look

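The genotype difference itself differed between day 0 and day 3, by the test of the interaction, in each of the 51 called genes, and the log2 interactions of 50 of them are given here by group. Among the Wnt, streak and caudal genes the values were 7.66 (Lhx1), 5.51 (Lgr5), 4.97 (Cyp26a1), 4.92 (Mixl1), 4.71 (Frzb), 4.69 (Rspo3), 4.67 (Wnt3), 4.28 (Aplnr), 3.53 (Apln), 2.73 (Sp8), 2.51 (Eomes), 1.42 (Axin2) and 1.28 (Lgr4). Genes of patterning and neural development gave 3.67 (Msx1), 3.08 (Hoxb9), 2.84 (Gabra5), 1.77 (Nrcam), 1.43 (Jag1), 1.37 (Gli3) and 1.16 (Sox21). The genes that fell to near 0 counts in the controls by day 3 gave 7.69 (Prl2c3), 6.04 (Dio2) and, for the shared reads of the Ugt1a cluster, 3.76 (Ugt1a9), 3.75 (Ugt1a6a and Ugt1a6b), 3.68 (Ugt1a8), 3.64 (Ugt1a2 and Ugt1a5) and 3.45 (Ugt1a7c).

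Genes that fell from day 0 in the controls further included Lrrc17 (2.88), Dmgdh (2.84), Col6a3 (2.36), S100a4 (1.99), Gm42674 (1.82) and Morc2a (0.80). Adhesion, channel and signalling genes gave 2.72 (Piezo2), 2.49 (Tnfrsf19), 2.37 (Amot), 2.31 (Pcdh18), 2.18 (Fat3), 2.13 (Itgb8), 2.04 (Maml3), 2.01 (Irs1), 1.96 (Cpm), 1.79 (Fam84b) and 1.57 (Dsc2). Ch25h gave 6.51 with line 319 on the side of the controls. The negative values were -2.20 (Doc2a), -1.47 (Rdm1) and -1.24 (Csrp2). With 3 samples in each group, no single sample was tested for standing apart from its group.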

How the results depend on the processing

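With the replicate block for series the interaction was called in 51 genes, and with no replicate block in 127, of which 40 were among the 51. Of the other settings, 69 genes were called with DESeq2 size factors and 47 with chromosomes 8, 12, X, Y and MT left out. All 18 samples in 1 fit gave 77, the HM1-derived lines alone 1108, the DESeq2 Wald test 653 and no filter on low counts 223. Fewer were called with limma-voom (17), the longest transcript of a gene (15), the sum over transcripts (3) and no robust estimation (16). Leaving out 1 replicate gave 0 to 821. All 51 kept their sign in each setting that tested them, which their choice favours. The knockout lines differed from the controls in 244 genes at day 0, and in 156 (18 samples), 1410 (HM1-derived lines alone), 438 (no filter) and 27 to 909 (1 replicate left out). At day 3 the count of 2394 became 947 (18 samples), 4739 (HM1-derived lines alone) and 148 to 4491 (1 replicate left out). The lowest of these were without line 14 at day 0 and without HM1 replicate 2 at day 3, and the highest were without line 319. With a limit of 2-fold, 11 genes flipped, 1 changed size and 7 stayed under the limit at both days. The cause of these shifts was not tested. Groups at or under 3 counts per library limit the folds of Prl2c3, Dio2, Lgr5, Aplnr and Ch25h.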
